A study of Mus musculus with 6 samples.

Results

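The adipocyte marker genes described here are 9 transcripts that are typical of white fat cells and were measured in bulk RNA of gastrocnemius muscle. They were chosen by name, as rows of the count table whose gene name was Adipoq, Cfd, Lep, Retn, Plin1, Plin4, Cidec, Fabp4 or Car3, and all 9 were found among 49315 genes. The muscles came from male C57BL6J mice, an inbred strain, whose muscles were injected with an AAV9 vector, an adeno-associated virus that enters muscle well, at 5 months of age, and muscle was taken 5 months later. In the AAV9-HSA-CAAHR group (3 libraries, called CAAHR 31, CAAHR 34 and CAAHR 36 after their labels), the vector carried a mouse aryl hydrocarbon receptor (AHR) whose ligand-binding domain was removed, so that it acts without a ligand. In the AAV9-HSA-GFP group (3 libraries, GFP 42, GFP 43 and GFP 46), it carried a green fluorescent protein. HSA is the promoter of human skeletal actin, which restricts both transgenes to myofibres, so the receptor was directed to cells other than the fat cells themselves. Both groups carried vector, and muscle without vector was not analysed here. Fell, rose, lower and higher in CAAHR therefore mean relative to GFP muscle only.

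White adipocytes store triglyceride in a single large lipid droplet and release hormones and other proteins, the adipokines, into blood. In limb muscle they lie between the fibres and along the fascia, and they arise from resident progenitors. Several of their lipid-handling genes are also used by other cells: endothelial cells of capillaries make Fabp4, and muscle fibres make Car3 and Plin4. The comparison asked whether fat cell transcripts differed between muscle with active AHR in its fibres and muscle with GFP, and whether the 9 genes varied together over the 6 libraries. In bulk RNA, fewer fat cells and less of a transcript per fat cell cannot be told apart.

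Library totals ranged from 43432994 to 58825752 counts. Levels are given as CPM, the reads of a gene relative to the total of its library after TMM scaling (trimmed mean of M values). The labelled tissue held its defining transcripts in every library, with Acta1 (skeletal actin) between 21660.4 and 37674 CPM, Ckm (muscle creatine kinase) between 14426 and 29593 CPM and Myh4 (fast myosin) between 57095 and 92787 CPM. Acta1 and Ckm were lower in every CAAHR library than in any GFP library. By the edgeR test described below, their log2 fold changes were -0.74 ± 0.13 (adjusted p = 0.00895) and -0.73 ± 0.16 (adjusted p = 0.0251). Ahr itself was at 9.97, 22.8 and 17.3 CPM in CAAHR 31, 34 and 36 and at 2.47, 2.55 and 1.87 CPM in GFP 42, 43 and 46. Its level was thus above every GFP library in each library labelled CAAHR.

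The promoters of 4 members are shown because they belong to the transcripts whose shared variation is described next: Adipoq and Cidec, which kept a nearly constant ratio, Cfd, with the largest fitted fold change, and Lep, with the smallest among the 6 genes that were low in CAAHR muscle on average. Each is the 250 bases before the RefSeq start site on GRCm38.p6, written 5′ to 3′ on the strand of the gene. They lie at chr16:23146286-23146535 (plus strand) for Adipoq, chr6:113435761-113436010 (minus strand) for Cidec, chr10:79890603-79890852 (plus strand) for Cfd and chr6:29059971-29060220 (plus strand) for Lep. Capitals mark the motifs that were found.
Adipoq: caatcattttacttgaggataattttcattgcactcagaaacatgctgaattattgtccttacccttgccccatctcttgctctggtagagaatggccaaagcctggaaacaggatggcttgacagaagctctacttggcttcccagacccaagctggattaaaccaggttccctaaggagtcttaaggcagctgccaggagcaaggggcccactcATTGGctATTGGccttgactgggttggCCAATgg
Cidec: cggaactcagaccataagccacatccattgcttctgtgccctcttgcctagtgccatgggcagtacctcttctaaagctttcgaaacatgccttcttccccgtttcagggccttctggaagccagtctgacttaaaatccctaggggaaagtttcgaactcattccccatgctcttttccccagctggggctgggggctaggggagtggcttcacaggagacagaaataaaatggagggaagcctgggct
Cfd: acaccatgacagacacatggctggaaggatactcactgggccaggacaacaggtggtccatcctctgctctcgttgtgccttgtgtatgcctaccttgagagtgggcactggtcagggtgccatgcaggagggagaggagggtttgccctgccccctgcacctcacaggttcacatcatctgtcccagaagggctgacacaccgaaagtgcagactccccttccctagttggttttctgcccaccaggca
Lep: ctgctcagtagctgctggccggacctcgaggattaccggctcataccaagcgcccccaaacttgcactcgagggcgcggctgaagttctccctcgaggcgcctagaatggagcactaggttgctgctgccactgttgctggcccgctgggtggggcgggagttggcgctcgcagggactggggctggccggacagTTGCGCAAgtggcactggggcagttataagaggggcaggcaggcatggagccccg

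Motifs were searched as exact letters on both strands in the windows of 7 of the 9 members, with 8 windows in all since Cidec has a pair of start sites. They were GCGTG, the core of the AHR response element, AGGTCA, a core of nuclear receptor sites, TTGCGCAA, a palindrome bound by C/EBP factors, and CCAAT, whose reverse complement is ATTGG. The Adipoq window held 3 CCAAT matches, starting 34, 27 and 7 bases before the start site, of which the first and second read ATTGG on the strand shown. CCAAT occurred in 33.8% of 32851 mouse windows of that length. The Lep window held TTGCGCAA 55 bases before the start site, a motif present in 0.164% of windows. The window shown for Cidec and that of Cfd held none of the motifs. Outside the windows shown, the second Cidec start site had GCGTG 79 bases upstream, a motif present in 28.2% of windows, and Plin4 had CCAAT 18 bases upstream. AGGTCA, in 14% of all windows, was in none of the 8. A match describes letters only and shows neither binding nor control.

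Of the 9 members, 3 fell in CAAHR muscle, namely Cfd, Plin1 and Retn, and none rose. The test was edgeR's quasi-likelihood F test, with p-values adjusted after Benjamini and Hochberg over 15847 genes. The share of all tested genes that were called lower was 4.57%, and 7.6% were called in either direction. All 3 changed more than 2-fold, which 2.51% of tested genes did in that direction, 0.972% in the other and 3.48% in either. At an unadjusted p under 0.05 there were 4 members, with Car3 as the fourth, beside 23.9% of tested genes. The median log2 fold change of the 9 members was -1.996, beside 0.01 over all tested genes. Every member had at least 10 counts in each library. A filter that asked for this in every library kept all 9, with Cfd and Retn called.

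The secreted members are described first. Cfd encodes complement factor D (adipsin), a serine protease that fat cells secrete and that starts the alternative complement pathway. It lies on chromosome 10 at 79890853 to 79892655 (GRCm38, plus strand). Its level was 3.56, 1.21 and 5.54 CPM in CAAHR 31, 34 and 36, and 29.2, 19.0 and 37.1 CPM in GFP 42, 43 and 46. The highest CAAHR library was well below the lowest GFP library, and CAAHR 34 stood lowest of all. The mean was 3.44 ± 2.17 CPM (SD, n = 3) against 28.4 ± 9.04 CPM, and the log2 fold change was -3.05 ± 0.59 (SE, 95% confidence interval -4.54 to -1.55, adjusted p = 0.0460 by edgeR), which is 8.25-fold lower.

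Retn encodes resistin, a cysteine-rich hormone that in mice is made by white fat. It lies on chromosome 8 at 3655770 to 3660110 (plus strand). Counts were 17, 10 and 37 in CAAHR 31, 34 and 36, and 114, 54 and 129 in GFP 42, 43 and 46, or 0.336, 0.175 and 0.607 CPM against 2.36, 1.30 and 2.44 CPM. The groups did not overlap, and the order of libraries was the one seen for Cfd. The log2 fold change was -2.43 ± 0.43 (95% confidence interval -3.40 to -1.46, adjusted p = 0.0111 by edgeR), or 5.40-fold lower, and all 3 CAAHR libraries lay below all 3 GFP libraries.

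Adipoq encodes adiponectin, the most abundant adipokine in blood, and lies on chromosome 16 at 23146536 to 23158028 (plus strand). It was at 2.87, 0.560 and 4.53 CPM in CAAHR 31, 34 and 36 and at 19.0, 4.09 and 10.9 CPM in GFP 42, 43 and 46. GFP 43 stood below CAAHR 36, so the groups overlapped, and GFP libraries alone differed by up to 4.65-fold. The mean was 2.65 ± 1.99 CPM against 11.3 ± 7.47 CPM. The log2 fold change of -2.09 ± 0.90 did not pass the test (adjusted p = 0.248 by edgeR), and its 95% confidence interval ran from -4.41 to 0.23.

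Lep encodes leptin, the satiety hormone of fat tissue, and lies on chromosome 6 at 29060220 to 29073877 (plus strand). Its level was 4.19, 0.595 and 3.84 CPM in CAAHR 31, 34 and 36, and 17.1, 2.19 and 7.76 CPM in GFP 42, 43 and 46. GFP 43 was again the low GFP library, below CAAHR 31 and CAAHR 36, and the GFP libraries differed by up to 7.80-fold. Its log2 fold change was -1.65 ± 0.999 (95% confidence interval -4.23 to 0.93, adjusted p = 0.399 by edgeR).

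**Figure D1:**
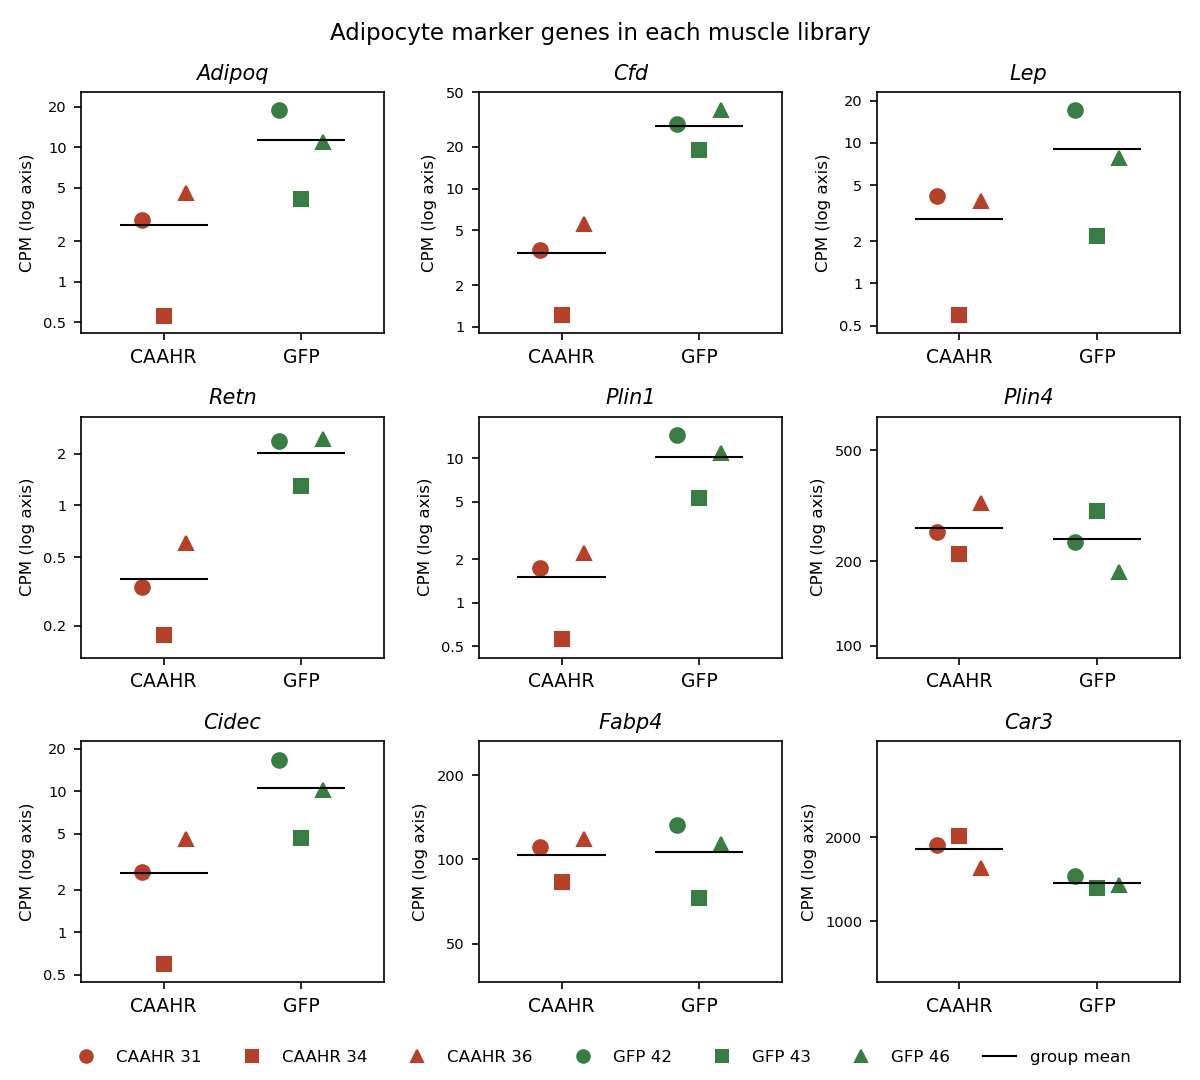
Level of each marker gene in each library, in TMM-scaled CPM on a log axis, with CAAHR libraries in red, GFP libraries in green and the mean of each group as a line. CAAHR 34 is the lowest library for Adipoq, Cfd, Lep, Retn, Plin1 and Cidec, GFP 43 is the lowest GFP library for the same genes, and Plin4, Fabp4 and Car3 vary by less than 2-fold over all libraries.

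Lipid droplet proteins differed among themselves. Plin1 encodes perilipin 1, which coats the droplet of fat cells and gates access of lipases, and lies on chromosome 7 at 79720218 to 79732903 (minus strand). Its level was 1.74, 0.560 and 2.20 CPM in CAAHR 31, 34 and 36, and 14.4, 5.36 and 10.9 CPM in GFP 42, 43 and 46. The groups were apart, with the same low library in each. The mean was 1.499 ± 0.845 CPM against 10.2 ± 4.58 CPM, and the log2 fold change of -2.77 ± 0.58 passed the test (95% confidence interval -4.21 to -1.34, adjusted p = 0.0473 by edgeR), or 6.83-fold lower.

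Cidec encodes the protein FSP27, which lets lipid droplets fuse into a single large one, and lies on chromosome 6 at 113424634 to 113435760 (minus strand). It was at 2.69, 0.595 and 4.61 CPM in CAAHR 31, 34 and 36 and at 16.7, 4.66 and 10.2 CPM in GFP 42, 43 and 46. The groups did not overlap only by the narrow gap between CAAHR 36 and GFP 43. Its log2 fold change was -1.996 ± 0.82, with a 95% confidence interval from -4.11 to 0.12 and an adjusted p of 0.230 by edgeR.

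Plin4 encodes perilipin 4, a coat protein of small droplets that both fat and muscle make, and lies on chromosome 17 at 56100591 to 56109803 (minus strand). Its level was 254, 213 and 324 CPM in CAAHR 31, 34 and 36, and 234, 302 and 183 CPM in GFP 42, 43 and 46. The groups overlapped fully, and GFP 43, the low GFP library for the adipokines, was the high one here. Fitted, its log2 fold change was 0.14 ± 0.21 (95% confidence interval -0.34 to 0.61, adjusted p = 0.753 by edgeR). Of its exons, 17 bases are shared with Hdgfl2 on the opposite strand, and counting used strand only if the libraries were stranded, which was not given in the sources used here.

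Cytosolic proteins formed the most abundant class, but only through Car3, as Fabp4 was below Plin4 in both groups. Fabp4 encodes the fatty acid carrier aP2 of fat cells, endothelial cells and macrophages, and lies on chromosome 3 at 10204088 to 10208576 (minus strand). Its level was 111, 82.8 and 118 CPM in CAAHR 31, 34 and 36, and 132, 72.6 and 113 CPM in GFP 42, 43 and 46. The groups overlapped, with the wider range in GFP, and CAAHR 34 and GFP 43 were again the low libraries of their groups. A log2 fold change of -0.03 ± 0.23 was fitted (95% confidence interval -0.56 to 0.49, adjusted p = 0.957 by edgeR).

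Car3 encodes carbonic anhydrase 3, which is abundant in fat cells and in slow muscle fibres, and lies on chromosome 3 at 14863512 to 14872523 (plus strand). It was at 1879.7, 2017 and 1554 CPM in CAAHR 31, 34 and 36 and at 1457, 1319 and 1347 CPM in GFP 42, 43 and 46. Every CAAHR library was above every GFP library, opposite to the other members whose groups were apart, and CAAHR 34, lowest for the adipokines, was the highest here. The log2 fold change was 0.40 ± 0.13 (95% confidence interval 0.11 to 0.69, adjusted p = 0.0932 by edgeR). It passed the threshold under 3 of 14 other settings, among them scaling by library size only (adjusted p = 0.0447) and the DESeq2 Wald test (adjusted p = 0.0210).

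**Figure D2:**
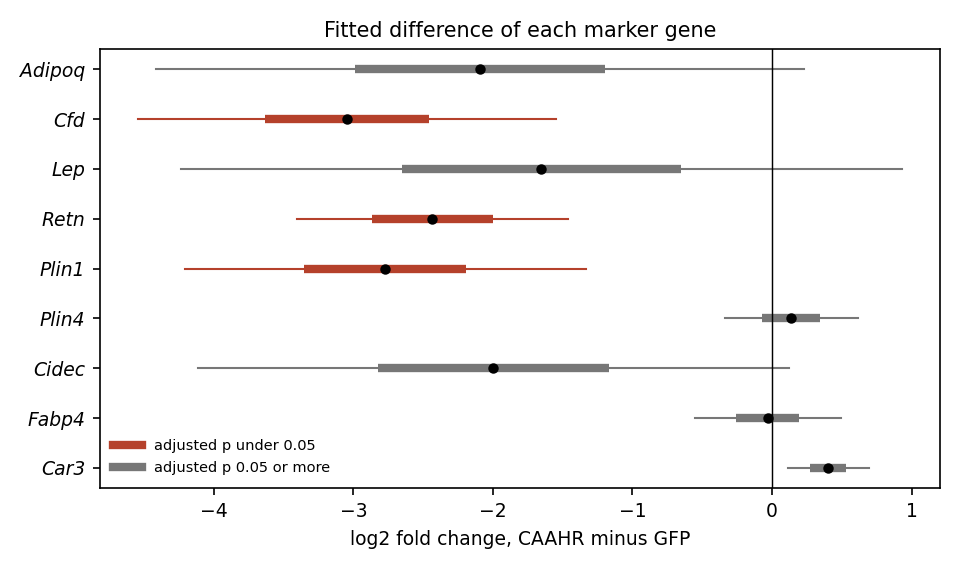
Fitted log2 fold change of each marker gene, CAAHR minus GFP, as a point with its SE (thick bar) and 95% confidence interval (thin bar), in red where the adjusted p was under 0.05. Intervals of Cfd, Retn and Plin1 lie wholly below 0, those of Adipoq, Lep and Cidec reach past 0, and those of Plin4 and Fabp4 are narrow and centred near 0. The interval of Car3 lies wholly above 0, though its adjusted p was not under 0.05.

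Groups of 5 members did not overlap (Cfd, Retn, Plin1 and Cidec lower in CAAHR, Car3 higher), where 29.9% of all tested genes had groups apart. The calls changed with the libraries used. Without CAAHR 31 or without GFP 46 no member passed (Retn came nearest, with adjusted p = 0.0558 and 0.0515), without CAAHR 36 or GFP 42 only Retn passed, and without GFP 43 Retn and Plin1 passed, while all 3 passed without CAAHR 34. The fitted log2 fold change of each stayed negative throughout, from -3.60 to -2.65 for Cfd, -3.01 to -2.10 for Retn and -3.18 to -2.39 for Plin1. Whether the fold changes of Adipoq, Lep and Cidec differ from those of Cfd, Retn and Plin1 was not tested.

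Compared per kilobase of exon, Car3 was the most abundant member in both groups, at 634 ± 83.0 CPM per kb in CAAHR and 480 ± 25.6 in GFP muscle. Plin4 followed with 45.7 ± 9.77 and 41.5 ± 10.3 CPM per kb, and Fabp4 was at 23.1 ± 4.15 and 23.6 ± 6.80. In GFP muscle Cfd, at 30.8 ± 9.80 CPM per kb, lay between Plin4 and Fabp4 within their SDs, whereas in CAAHR muscle it was at 3.73 ± 2.35, well under both. The order below was the same in the 2 groups: Adipoq with 1.92 ± 1.44 in CAAHR and 8.19 ± 5.41 in GFP, then Cidec, Lep, Plin1, and last Retn with 0.236 ± 0.138 and 1.29 ± 0.403. Each of these differed from its neighbour in the order by less than their SDs together.

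The members fell into 6 genes with low levels and wide variation and 3 with high levels and narrow variation, a split made after their values were seen. From the lowest to the highest library, Adipoq varied 33.9-fold, Cfd 30.7-fold, Lep 28.7-fold, Cidec 28.1-fold, Plin1 25.8-fold and Retn 13.9-fold. Over the same libraries Fabp4 varied 1.82-fold, Plin4 1.77-fold and Car3 1.53-fold.

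Correlations were computed on log2 CPM for the 36 pairs of members, with exact permutation over the 720 orders of 6 libraries, two-sided, and Benjamini-Hochberg adjustment over the pairs. By Pearson's r 14 pairs had an adjusted p under 0.05. Spearman's rho gave none, as the smallest adjusted value it reached was 0.05. Of the 14 pairs, 12 were among the 15 pairs of the 6 variable genes, whose r ran from 0.777 to 0.998 with a median of 0.940. All 6 genes had a lower mean in CAAHR, also Adipoq and Lep, whose groups overlapped. A correlation over all libraries therefore also contains the group difference, and the permutation took no account of group. With 3 libraries in a group the relation cannot be tested within one. Values centred on each group mean are therefore given as a description: r of the 15 pairs then ran from 0.828 to 0.998.

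By r over the 6 libraries, Adipoq and Cidec were the closest pair (r = 0.998, exact permutation p = 0.00278, adjusted p = 0.0182, and rho = 0.943, exact permutation p = 0.0167, adjusted p = 0.075). By rho, Cfd with Retn and Plin1 with Cidec were closer, each with rho = 1 (exact permutation p = 0.00278, adjusted p = 0.05). Without the 2 libraries farthest from the median of Adipoq, CAAHR 34 and GFP 42, r was 0.986, and on group-centred values it was 0.996. The ratio of Cidec to Adipoq counts was 0.938, 1.06 and 1.02 in CAAHR 31, 34 and 36 and 0.880, 1.14 and 0.936 in GFP 42, 43 and 46. It therefore moved by 1.30-fold over libraries in which Adipoq itself moved 33.9-fold, and the groups overlapped.

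Other ratios to Adipoq were less constant. Counts of Cfd per count of Adipoq ranged from 1.22 in CAAHR 36 to 4.66 in GFP 43, those of Plin1 from 0.486 to 1.31, those of Retn from 0.117 to 0.318 and those of Lep from 0.535 to 1.46. In all 4 the groups overlapped. For Cfd, Plin1 and Retn the ratio was highest in GFP 43, where Adipoq was low among GFP libraries, and within CAAHR it was highest in CAAHR 34. Lep went the other way in GFP muscle, with its lowest ratio in GFP 43. Ratios of Fabp4 (6.96 to 148) and Car3 (76.7 to 3602) to Adipoq were higher in every CAAHR library than in any GFP library.

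Cfd and Retn were correlated with r = 0.993 (exact permutation p = 0.00139, the smallest that 720 orders allow, adjusted p = 0.0182), and their group-centred r was 0.959. Plin1 followed Adipoq with r = 0.954 (exact permutation p = 0.00417, adjusted p = 0.0182, and rho = 0.943, exact permutation p = 0.0167, adjusted p = 0.075). Without CAAHR 34 and GFP 42 that r was 0.865, and centred on groups it was 0.998. Leptin was the loosest of the 6. Its r with Adipoq was 0.959 (exact permutation p = 0.00556, adjusted p = 0.0182) and fell to 0.701 without CAAHR 34 and GFP 42, and its r with Cidec fell from 0.940 to 0.575, so these relations rested in part on those libraries. Among the 15 pairs, 5 had r under 0.8 once the farthest libraries were left out.

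Fabp4 did not pass with any member over the 6 libraries, with r from 0.303 for Cfd to 0.7999 for Lep against the 6 variable genes. On group-centred values its r with them was between 0.753 and 0.952. Within each group, then, the libraries low for adipokines were low for Fabp4, while between groups its mean did not follow theirs. Of 12 endothelial transcripts, from another cell type that makes Fabp4, 11 were lowest among CAAHR libraries in CAAHR 34, 8 were lowest among GFP libraries in GFP 43, and 7 were both. Pecam1, of the latter, was at 70.9, 50.2 and 65.1 CPM in CAAHR 31, 34 and 36 and at 61.4, 51.6 and 60.9 CPM in GFP 42, 43 and 46. These low libraries were not particular to endothelial genes. Summed levels of Schwann cell and fibro-adipogenic progenitor genes were also lowest in CAAHR 34 and GFP 43 within their groups. Those of macrophage and slow fibre genes were lowest among CAAHR libraries in CAAHR 34. How many of all genes share these low libraries was not counted. The part of endothelial cells in the Fabp4 values was not tested. Plin4 was unrelated to the 6 genes over the libraries (r from -0.162 to -0.0143). Car3 was negatively correlated with Cfd (r = -0.928, exact permutation p = 0.00556, adjusted p = 0.0182) and Retn (r = -0.915, exact permutation p = 0.0181, adjusted p = 0.0464). Both groups are apart for each of these genes, and centred on groups r was -0.70 and -0.64.

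**Figure D3:**
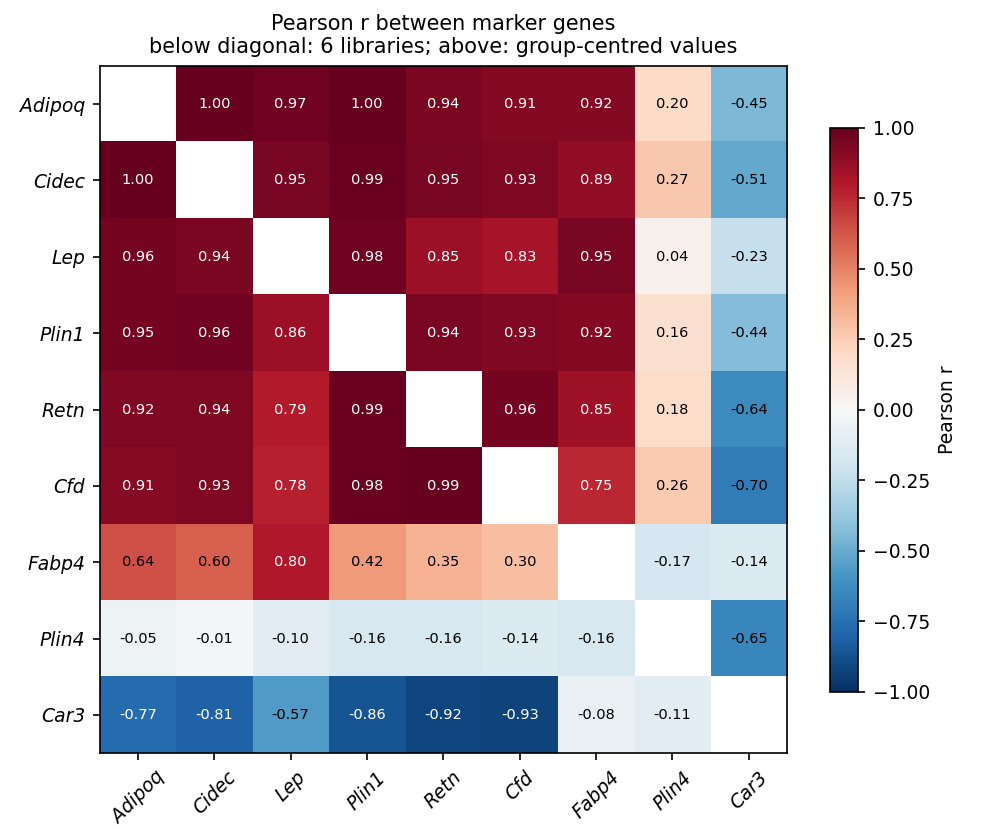
Pearson r of log2 CPM for the pairs of marker genes, over all 6 libraries below the diagonal and on group-centred values above it, with red for positive and blue for negative r. Adipoq, Cidec, Lep, Plin1, Retn and Cfd form a block of r from 0.777 to 0.998, Fabp4 joins it only on group-centred values, and Plin4 and Car3 stay outside.

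**Figure D4:**
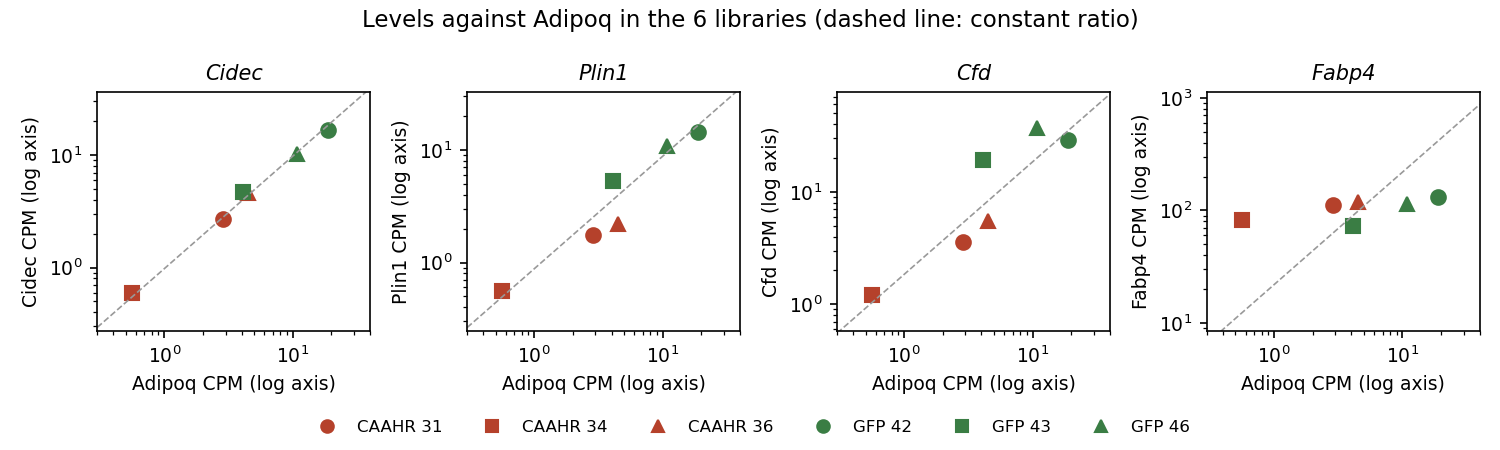
Level of Cidec, Plin1, Cfd and Fabp4 against that of Adipoq in each library, in CPM on log axes, with a dashed line where the ratio would be constant. Cidec lies close to the line in all 6 libraries, Plin1 and Cfd lie above it in GFP 43 and GFP 46 and below it in CAAHR 31 and 36, and Fabp4 stays between 72.6 and 132 CPM while Adipoq moves 33.9-fold.

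By the rule of highest r with the mean standardised level of the 9 members, among 12233 other genes of at least 1 CPM on average, the 5 genes most alike in pattern over 6 libraries were Tusc5 (r = 0.998), Lbp (0.994), Ece1 (0.989), Mgat3 (0.988) and Vwf (0.988). Tusc5, also named Trarg1, is a fat cell gene that helps sort glucose transporters. It was at 2.41, 1.07 and 2.72 CPM in CAAHR 31, 34 and 36 and at 4.97, 2.4996 and 3.72 CPM in GFP 42, 43 and 46, which is the order of libraries seen for Adipoq. None of the 5 passed the test between groups, with log2 fold changes from -0.85 ± 0.37 for Tusc5 (adjusted p = 0.205 by edgeR) to -0.21 ± 0.11 for Ece1 (adjusted p = 0.293). On group-centred values the closest were Gm28653 (0.999), Tusc5 (0.998), Ehd2 (0.997), Rad50 (0.997) and Hp (0.995). Gm28653 rose in CAAHR muscle (log2 fold change 2.70 ± 0.54, adjusted p = 0.0267 by edgeR, higher in 3 of 3 libraries, and lost without CAAHR 31, CAAHR 36, GFP 43 or GFP 46 at up to 0.118), so its likeness held only for the spread inside the groups. With 6 libraries and so many candidates, high values of r are given as a description.

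Other genes of fat cells were taken from 5 lists, of transcription factors, fat synthesis, fat breakdown, uptake of fatty acids and glucose, and further enriched genes. Of 58 listed genes 55 were tested, 6 fell and 1 rose, beside 4.57% of all tested genes called lower and 3.04% called higher, and their median log2 fold change was -0.12. Of the 55, 30 were lower and 25 higher in CAAHR on average. An unadjusted p under 0.05 by edgeR was reached by 24 of them, beside 23.9% of all tested genes. Many of the listed genes are also used by muscle fibres or other cells. Among transcription factors 2 of 8 were called, and on average 4 were lower and 4 higher in CAAHR. Cebpa, which drives the late stage of fat cell formation, was at 2.72 ± 0.666 CPM in CAAHR and 6.95 ± 1.88 CPM in GFP muscle (log2 fold change -1.35 ± 0.25, adjusted p = 0.0136 by edgeR, lower in 3 of 3). Klf15, a factor of fat and muscle metabolism, rose from 28.4 ± 3.38 to 43.2 ± 7.47 CPM (log2 fold change 0.61 ± 0.14, adjusted p = 0.0303). The call of Cebpa was lost without CAAHR 31 or GFP 46 (adjusted p at most 0.0594), and that of Klf15 without CAAHR 31, CAAHR 36, GFP 42 or GFP 46 (at most 0.115). Pparg, the main regulator of fat cell identity, was at 2.56 ± 0.546 against 2.52 ± 0.564 CPM. The most abundant members, Srebf1 (log2 fold change 0.17 ± 0.11) and Mlxipl (0.15 ± 0.11), did not pass.

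In fat synthesis 1 of 14 tested genes was called, and 7 had an unadjusted p under 0.05 by edgeR. On average 9 were lower and 5 higher in CAAHR. Scd1, which makes monounsaturated fatty acids, was at 12.7, 7.75 and 21.0 CPM in CAAHR 31, 34 and 36 and at 104, 50.3 and 137 CPM in GFP 42, 43 and 46, with CAAHR 34 and GFP 43 lowest in their groups as for the adipokines. Its log2 fold change was -2.81 ± 0.55 (adjusted p = 0.0470 by edgeR), and the call was lost in 7 of 14 alternatives, among them each fit that left out a library other than GFP 43 (adjusted p at most 0.132). Gpd1 (-0.17 ± 0.17) and Lpin1 (0.19 ± 0.12), the most abundant of the list, did not pass.

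In fat breakdown 2 of 7 were called, both lower. On average 2 were lower and 5 higher in CAAHR. Ces1d, a carboxylesterase that hydrolyses lipid, was at 7.29 ± 1.13 against 32.4 ± 3.86 CPM (log2 fold change -2.15 ± 0.14, adjusted p = 8.1e-05 by edgeR). Pde3b, which relays the antilipolytic effect of insulin, was at 1.58 ± 0.306 against 3.68 ± 0.428 CPM (-1.22 ± 0.20, adjusted p = 0.00756). Both calls held in all 14 alternatives. In both genes GFP 43 was not the lowest GFP library, unlike in the 6 variable markers. Pnpla2 (0.08 ± 0.19) and Mgll (0.52 ± 0.25), the most abundant lipases listed, did not pass.

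In uptake 0 of 8 passed by edgeR (2 did before adjustment, at p under 0.05, both higher in CAAHR). On average 7 were higher and 1 lower in CAAHR, with a median log2 fold change of 0.27. Slc2a4 (0.04 ± 0.12) and Lpl (0.84 ± 0.41) had the highest levels. Among further enriched genes 2 of 18 were called, and the median log2 fold change was -0.58. Before adjustment 11 of the 18 had p under 0.05 by edgeR, beside 23.9% of all tested genes. On average 14 were lower and 4 higher in CAAHR. Nnat fell from 13.2 ± 3.21 to 4.62 ± 1.69 CPM (log2 fold change -1.52 ± 0.30, adjusted p = 0.0268 by edgeR). The call was lost without CAAHR 31, GFP 42 or GFP 46 (adjusted p at most 0.0876). Rbp4, which encodes the carrier of retinol in blood and is also secreted by fat, fell from 1.55 ± 0.747 to 0.449 ± 0.182 CPM (-1.80 ± 0.45, adjusted p = 0.0455), a call lost in 7 of 14 alternatives, among them each fit that left out a library other than GFP 43 (adjusted p at most 0.132). Timp4 (0.34 ± 0.18) and Bscl2 (-0.36 ± 0.13), the most abundant, did not pass.

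**Figure D5:**
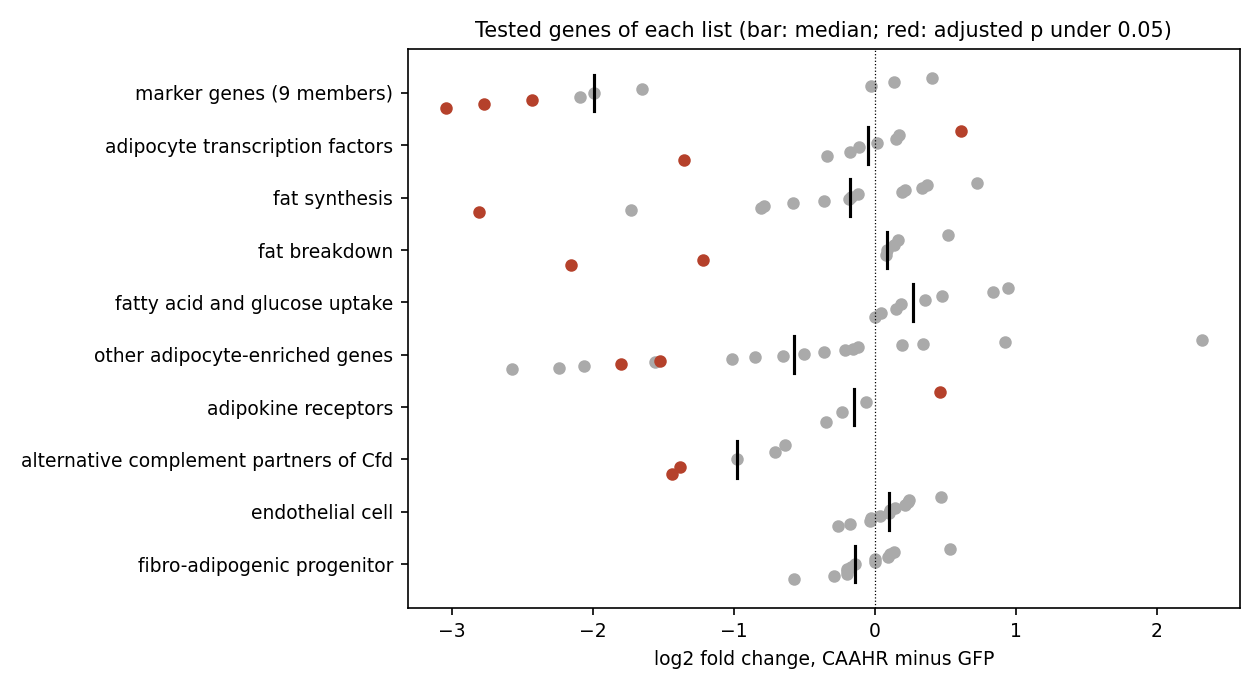
Log2 fold change, CAAHR minus GFP, of each tested gene of the marker genes and of 9 further lists, with the list median as a bar and genes with an adjusted p under 0.05 in red. The median of the marker genes lies at -1.996, while the medians of the 5 lists of other fat cell genes lie between -0.58 and 0.27.

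Partners and receptors of the secreted members were also counted. Factor D cleaves factor B bound to C3b, and 2 of 5 tested genes of the alternative complement pathway fell. C3, the central complement protein, was at 21.9 ± 5.10 against 59.5 ± 13.5 CPM (log2 fold change -1.44 ± 0.21, adjusted p = 0.00759 by edgeR), and Cfb, factor B, was at 0.409 ± 0.174 against 1.07 ± 0.122 CPM (-1.38 ± 0.36, adjusted p = 0.0467). C3 was highest in GFP 43, where Cfd was lowest among the GFP libraries. Cfb had 50, 50 and 51 counts in GFP 42, 43 and 46, too alike to order these libraries. The call of C3 held in all 14 alternatives and that of Cfb in 7, with none of the 6 fits that left out a library among them (adjusted p at most 0.126). Among 4 receptors of adiponectin and leptin, Cdh13, T-cadherin, rose from 77.8 ± 4.25 to 106.9 ± 7.90 CPM (0.46 ± 0.10, adjusted p = 0.0222), a call lost without CAAHR 36, GFP 42, GFP 43 or GFP 46 (at most 0.101), and Adipor1 (-0.23 ± 0.10) and Adipor2 (-0.06 ± 0.10) did not pass.

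Markers of other cells of muscle were set beside these values. Of 12 endothelial genes 0 were called by edgeR, also before adjustment (0 with p under 0.05), and their median log2 fold change was 0.10. Their summed level was between 313 and 475 CPM in CAAHR and between 348 and 401 CPM in GFP muscle, with Cdh5 (0.10 ± 0.14) and Flt1 (0.23 ± 0.21) among the most abundant. Of 13 genes of fibro-adipogenic progenitors, the cells from which muscle fat arises, 0 were called and 1 had an unadjusted p under 0.05. Their median was -0.14 and their summed level ranged from 385 to 650.2 CPM in CAAHR and from 529 to 646 CPM in GFP muscle, with Dcn (-0.17 ± 0.23) and Col1a1 (0.10 ± 0.30) highest.

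Schwann cell transcripts, from the nerve in the muscle, had a summed level of 79.9, 50.4 and 83.3 CPM in CAAHR 31, 34 and 36 and of 139, 80.9 and 122 CPM in GFP 42, 43 and 46. From lowest to highest that is the order of the libraries for Adipoq, although GFP 43 and CAAHR 36 lay close together in both. Of 8 genes 0 were called and 2 had an unadjusted p under 0.05, with a median log2 fold change of -0.58 and with Pmp22 (-0.43 ± 0.23) among the most abundant. Immune transcripts ran in another order within GFP muscle. The summed level of 11 B cell and plasma cell genes was 20.2, 18.3 and 11.6 CPM in CAAHR 31, 34 and 36 and 146, 581 and 309.6 CPM in GFP 42, 43 and 46, so GFP 43, low for Adipoq, was highest. Of these genes 5 fell, with Ighm at -4.22 ± 0.59 (adjusted p = 0.0196 by edgeR) and Igkc at -6.38 ± 1.17 (adjusted p = 0.0440) the most abundant, beside Cd79a, Cd79b and Mzb1. With a library left out, Mzb1 kept its call in 4 of 6 fits, Ighm and Cd79b in 2, and Cd79a and Igkc in 1. Of 4 tested T cell genes Lck and Cd2 were called lower (kept in 2 of 5 and in 6 of 6 such fits). Counts in CAAHR 31, 34 and 36 were 2, 3 and 0 for Lck and 5, 2 and 3 for Cd2. In GFP 42, 43 and 46 they were 10, 55 and 18 for Lck and 18, 38 and 27 for Cd2. Lck, Cd2, Cd79a and Cd79b had under 10 counts in at least 1 CAAHR library. They met the count filter through their GFP levels, so their calls are given as a description. Of 10 macrophage genes 0 passed, with 8 at an unadjusted p under 0.05, all lower, Lyz2 (-1.35 ± 0.36) and C1qa (-1.21 ± 0.32) being highest. By quantitative PCR, the paper reports that selected immune genes were not lower in CAAHR muscle than in muscle without vector. It reads this as a local immune response to the GFP vector. Whether that holds for the genes named here was not tested.

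Slow fibre genes, the set to which Car3 belongs by its use in muscle, had a summed level of 2959, 699 and 2703 CPM in CAAHR 31, 34 and 36 and 248, 384 and 535 CPM in GFP 42, 43 and 46. All 10 were higher in CAAHR on average, with a median log2 fold change of 2.34, and 0 passed while 8 had an unadjusted p under 0.05. Myh7 (3.44 ± 0.78, adjusted p = 0.0691 by edgeR) and Atp2a2 (2.32 ± 0.49, adjusted p = 0.0526) were highest. CAAHR 34 had the lowest slow fibre level of its group and the highest Car3. The part of any of these cell types in the levels of the 9 markers was not tested.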

How the data were processed

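The deposited values were raw counts per gene. As the authors describe, poly(A) RNA was read as paired ends, reads were trimmed (Trimmomatic 0.36), aligned to GRCm38 (STAR 2.5.2b), and uniquely assigned exon reads were counted with featureCounts, without normalisation or pooling. Libraries were assigned by title, and labels do not tie them to separate animals, so p-values measure the spread between libraries. The tests used edgeR 4.0.16 under R 4.3.3 (filterByExpr, TMM scaling, robust quasi-likelihood F test, Benjamini-Hochberg over all tested genes, threshold 0.05). Correlations used log2 CPM with a prior count of 2. Calculations were tested on simulated data. Alternatives covered scaling, filters, DESeq2 1.42.0 (the tool of the authors), limma-voom (limma 3.58.1), non-robust fitting and leaving out each library. Identifiers matched GENCODE M21 for 48970 genes (99.3%), which supplied positions and exon lengths, and promoter windows came from RefSeq. Confidence intervals are at 95%. Members and lists were chosen with earlier results of these data known. Named genes were the 9 members, called genes of each list and its 2 most abundant genes (some are not reported here), and the 5 most alike by each measure; Pparg, Pecam1, Cidea, Plin5, Ucp1, Elovl3 and the tissue checks (Ahr, Acta1, Ckm, Myh4) were added with values known.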

Additional observations from a re-analysis of the deposited data

How the results depend on the processing

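No paired analysis was possible because CAAHR and GFP libraries carry different numbers. The number of members called was 3, and between 2 and 4 under the other scalings, filters and tests. It was 0 to 3 when a library was left out, and the number also over 2-fold was likewise 0 to 3 and was 1 without a filter on low counts. Over all genes 1205 were called, 2470 without a filter, 1923 with DESeq2 and 530 to 1727 when a library was left out. Of other fat cell genes 7 were called, 19 without a filter, 16 with DESeq2 and 2 to 14 when a library was left out. Calls of all genes were 724 lower and 481 higher with TMM, 990 and 358 with upper quartile scaling, and 600 and 876 with library size only. Correlated pairs numbered 14 by Pearson and 0 by Spearman. Even pairs in perfect rank order (rho = 1) reached an adjusted p of only 0.05 by exact permutation. The 0 thus rests on the few p-values that 6 libraries allow for ranks. Cfd and Plin1 lost their call without a filter (adjusted p = 0.0987 and 0.136 by edgeR), and Plin1 with at least 10 counts in every library (0.0507). The sign of Fabp4 turned with library size only (0.0523), with limma-voom (0.13) and when a library was left out (-0.24 to 0.16), and that of Plin4 when a library was left out (-0.0434 to 0.34), so neither has a direction. The cause of these changes was not tested. With a library left out, group differences in log2 ratio to Adipoq moved by less than the SD of that ratio over libraries, for all 48 values. That SD contains the group difference itself. The sign of the difference turned for Retn (-0.72 to 0.03) and Cidec (-0.04 to 0.15). At 10 to 129 counts, Retn had the least depth, and counting error alone widens its values most.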

Other observations

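Of 25 listed relatives of the members, 19 were tested and 2 fell, both relatives of Retn in the resistin family. Retnla, made by macrophages and fat, was at 2.44 ± 0.113 CPM (SD, n = 3) in CAAHR and 5.89 ± 1.75 CPM in GFP muscle (log2 fold change -1.27 ± 0.22 (SE), adjusted p = 0.00938 by edgeR's quasi-likelihood test with Benjamini-Hochberg adjustment). Retnlg, typical of neutrophils, was at 0.179 ± 0.0172 against 1.04 ± 0.420 CPM (-2.54 ± 0.39, adjusted p = 0.00496). Both were lower in 3 of 3 libraries. Fabp3, the fatty acid carrier of muscle, was at 578, 194 and 598 CPM in CAAHR 31, 34 and 36 and 115, 175 and 238 CPM in GFP 42, 43 and 46 (1.38 ± 0.51, adjusted p = 0.189). Plin5, the perilipin of oxidative muscle, was at 32.5, 12.1 and 33.6 CPM against 5.95, 8.44 and 12.0 CPM (1.56 ± 0.48, adjusted p = 0.125), and Plin2 was at 21.1 ± 1.95 against 27.4 ± 2.38 CPM (-0.38 ± 0.11, adjusted p = 0.0611).

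Cidea, a relative of Cidec that is best known from brown fat, was at 1.54, 0.700 and 1.64 CPM in CAAHR 31, 34 and 36 and at 0.145, 0.0721 and 0.529 CPM in GFP 42, 43 and 46. Its groups were apart in the direction opposite to Cidec (log2 fold change 2.32 ± 0.62, adjusted p = 0.0591 by edgeR), and the difference between both genes was not tested. The brown fat gene Ucp1 had 0 counts in every library and Elovl3 had at most 3. Of 5 tested brown fat markers 0 were called by edgeR, also before adjustment (0 with p under 0.05). Cox7a1 (0.26 ± 0.20) and Ppargc1a (-0.29 ± 0.16), the most abundant, are also muscle genes.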
